A study of Mus musculus with 288 samples.

Results

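The AP-1 and immediate early genes Fos, Fosb, Jun, Junb, Jund, Egr1, Ier2, Atf3, Dusp1 and Zfp36 were chosen by name, and all 10 had a row among the 24781 genes of the count table. They were described over the wells with 1 sorted cell whose total was more than 10 times that of the higher negative control, and this left 227 of 286 wells. The cells came from lungs of C57BL/6 mice aged 4 months with the alleles Scgb1a1-CreER, in which the promoter of Scgb1a1, a secreted protein of club cells, drives an inducible Cre recombinase, and Rosa26-mTmG, a membrane reporter that switches from red to green once recombined. Every sorted cell carried both alleles and came from the Epcam+CD45-CD31-CD24low gate positive for the Scgb1a1 lineage. Cells without this label were not analysed here, and the 2 negative controls were wells of medium. No label names the animal of a cell, so all wells were treated as 1 sample, and no test between conditions and no p-value was possible.

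The wells were divided by genes outside the group. In 63 Sftpc wells Sftpc, the surfactant protein made by alveolar type 2 (AT2) cells, took at least 1% of the total. In 74 Scgb3a1 wells this airway secretoglobin took at least 1%, and 90 other wells had neither. No well met both limits, 1 well lay between 0.5% and 1% for each gene, and 0 wells for Sftpc and 9 for Scgb3a1 lay between 1% and 2%. Summed over 9 AT2 markers the level was 221022 CPM (a gene's counts scaled to 1e6 counts of the same wells) in Sftpc wells, 6939 CPM in Scgb3a1 wells and 13348 CPM in other wells. Summed over 7 club markers it was 59773, 308701 and 383129 CPM in the same order. Ptprc and Pecam1, which define leukocytes and endothelial cells, were at 0 in all classes, and ciliated markers marked 0 Sftpc wells, 1 Scgb3a1 well and 7 other wells (at least 5 counts over Foxj1, Tppp3 and Ccdc153). The 7 immune markers summed to 1828, 9.74 and 9.90 CPM in Sftpc, Scgb3a1 and other wells, with 2 of 7 detected in Sftpc wells, and their part in the levels was not tested. Median totals were 3529, 6940.5 and 5406 counts in Sftpc, Scgb3a1 and other wells (range 2384 to 15088 over all kept wells). The table's columns fall into 3 successive sets of 96, which held 6, 17 and 40 Sftpc wells, 38, 31 and 5 Scgb3a1 wells, and 38, 33 and 19 other wells, so class and set went together.

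Immediate early genes are transcribed within minutes of a stimulus from factors already present in the cell, and most of their mRNAs are short-lived. Jun proteins pair with each other or with Fos proteins through leucine zippers, and these AP-1 dimers bind DNA, whereas Fos proteins need a Jun partner. JunD is often the subunit made without a stimulus. Egr1 is a zinc-finger activator, Atf3 a stress-induced factor of the same zipper class, Dusp1 a phosphatase that inactivates MAP kinases, and Zfp36 (tristetraprolin) a protein that speeds the decay of mRNAs with AU-rich elements. In lung as in other tissues these genes are known to respond to injury, growth factors and the dissociation of the tissue. No undissociated tissue was measured, and the part of cell isolation in the levels given here was not tested.

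The members lie on 7 chromosomes, with Junb, Jund and Ier2 on chromosome 8 and Fosb and Zfp36 on chromosome 7. In GENCODE M21 (GRCm38, the assembly of mm10, which the submitters' processing notes name) Fos spans 85473890 to 85477273 of chromosome 12 in 4 exons. Jun (chromosome 4, 95049034 to 95052222), Junb (chromosome 8, 84974484 to 84978718), Jund (chromosome 8, 70698949 to 70700616) and Ier2 (chromosome 8, 84661331 to 84662852) each have a single exon in the principal transcript. RefSeq (GRCm38.p6) had a promoter entry for 8 members, and the 250 bases before the start are printed for Fos, Fosb, Jun and Junb to show the motif matches in them. The Jund entry held none of the motifs named here and is not printed. They lie at chr12:85473640-85473889 (Fos, plus strand), chr7:19310046-19310295 (Fosb, minus strand), chr4:95052223-95052472 (Jun, minus strand) and chr8:84978749-84978998 (Junb, minus strand). Capitals mark, on either strand, TGACG (the core of a cyclic AMP response element, CRE), TGACATCA (a CRE variant known from the Jun promoter) and TATAAA (the TATA box). The last base printed adjoins the RefSeq transcription start. For Junb and Fosb this start differs from the start of the GENCODE gene, at 84978718 and 19310051.
Fos: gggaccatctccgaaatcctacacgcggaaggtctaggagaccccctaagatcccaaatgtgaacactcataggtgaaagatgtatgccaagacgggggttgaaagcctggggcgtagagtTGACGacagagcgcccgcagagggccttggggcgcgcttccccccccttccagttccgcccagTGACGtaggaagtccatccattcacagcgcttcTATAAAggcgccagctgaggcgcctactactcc
Fosb: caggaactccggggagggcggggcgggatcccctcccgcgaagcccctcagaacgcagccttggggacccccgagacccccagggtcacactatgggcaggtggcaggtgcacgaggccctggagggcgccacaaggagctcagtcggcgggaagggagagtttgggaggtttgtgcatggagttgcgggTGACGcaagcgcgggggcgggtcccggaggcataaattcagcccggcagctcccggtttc
Jun: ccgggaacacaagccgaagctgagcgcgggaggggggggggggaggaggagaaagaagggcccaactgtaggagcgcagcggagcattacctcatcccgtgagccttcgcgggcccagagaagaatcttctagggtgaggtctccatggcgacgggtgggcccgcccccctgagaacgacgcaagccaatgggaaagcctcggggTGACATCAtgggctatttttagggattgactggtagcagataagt
Junb: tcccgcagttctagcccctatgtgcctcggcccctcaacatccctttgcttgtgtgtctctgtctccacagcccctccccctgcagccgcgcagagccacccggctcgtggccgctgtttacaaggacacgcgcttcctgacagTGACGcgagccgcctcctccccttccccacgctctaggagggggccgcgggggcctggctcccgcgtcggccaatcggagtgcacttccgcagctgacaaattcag

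The core TGACG stood on either strand in 5 of 8 member promoters, among them Fos, Fosb and Junb, and in 17.8% of 32851 promoter entries of the same length. It was searched after the sequences were seen. The full CRE, TGACGTCA, which contains the core, was found in Dusp1 alone among the 8 and in 1.55% of entries. TGACATCA was found in Jun alone, with 2.93% of entries. The CArG box, which serum response factor binds, was found in Zfp36 alone among the 8, with 1.47% of entries. Only the 250 bases before the start were searched, and Egr1 and Ier2 had no entry. Sites farther upstream or in these 2 genes would not have been seen. TATAAA was found in Fos alone, with 12.4% of entries, and the AP-1 element TGACTCA was in no member promoter and in 4.46% of entries. The feedback genes are shown as 30-base stretches because theirs held the full CRE and the CArG box, given in capitals, at chr17:26508597-26508626 and chr7:28379267-28379296 (both minus strand).
Dusp1: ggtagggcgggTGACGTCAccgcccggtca
Zfp36: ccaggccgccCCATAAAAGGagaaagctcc
These are matches of letters and not evidence of binding. In the 3' UTRs of the principal transcripts, the AU-rich pentamer ATTTA occurred 4 times in Fos, Jun and Dusp1 each, 3 times in Atf3, 2 times in Junb and Egr1 and never in Ier2. Of 9 members with such a transcript, 4 had at least 3 copies, against 33.5% of 16089 genes.

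All 10 genes were common in the sorted cells. Over the 227 wells the members gave 6199 counts, or 0.492% of all counts, and a well held a median of 8 members with at least 1 count. Counts come from cDNA primed at the poly(A) tail and were not scaled by transcript length, so levels are compared between wells and not between genes. Jun was found in 89.9% of wells, Junb in 88.5% and Dusp1, at the low end, in 55.5%. In 28 wells all 10 members had a count, 6 wells, all of them other wells, held fewer than 3, and 1 of these held none. Background was low in counts: the control wells held 0 and 1 member counts (1 of Junb) in totals of 41 and 234. The 11 nearly empty sorted wells held 5 in 1139, and as a share of their totals they were close to the kept wells. The 59 sorted wells that were not kept, these 11 among them, held 406 member counts, at 6673 CPM. No cell type that should lack these genes was among the classes, so no share of wells in such a type is given. All intervals here are at 95% and cover counting error only.

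Summed over the members, Sftpc wells stood above the rest. The 10 genes took 0.255% to 1.61% of the total of a Sftpc well, with a median of 0.767%. In Scgb3a1 wells the range was 0.0895% to 1.66% with a median of 0.336%, and in other wells 0% to 1.79% with a median of 0.387%. The classes overlapped, and the well with the highest share was an other well with 58 member counts of 3241, 9 of the 10 members being present. Within the 3 sets of columns the medians were 0.739%, 0.751% and 0.789% in Sftpc wells, 0.293%, 0.348% and 0.476% in Scgb3a1 wells, and 0.333%, 0.481% and 0.498% in other wells. In each set the Sftpc median was the highest, while sets 2 and 3 had higher medians than set 1 in all classes.

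**Figure D1:**
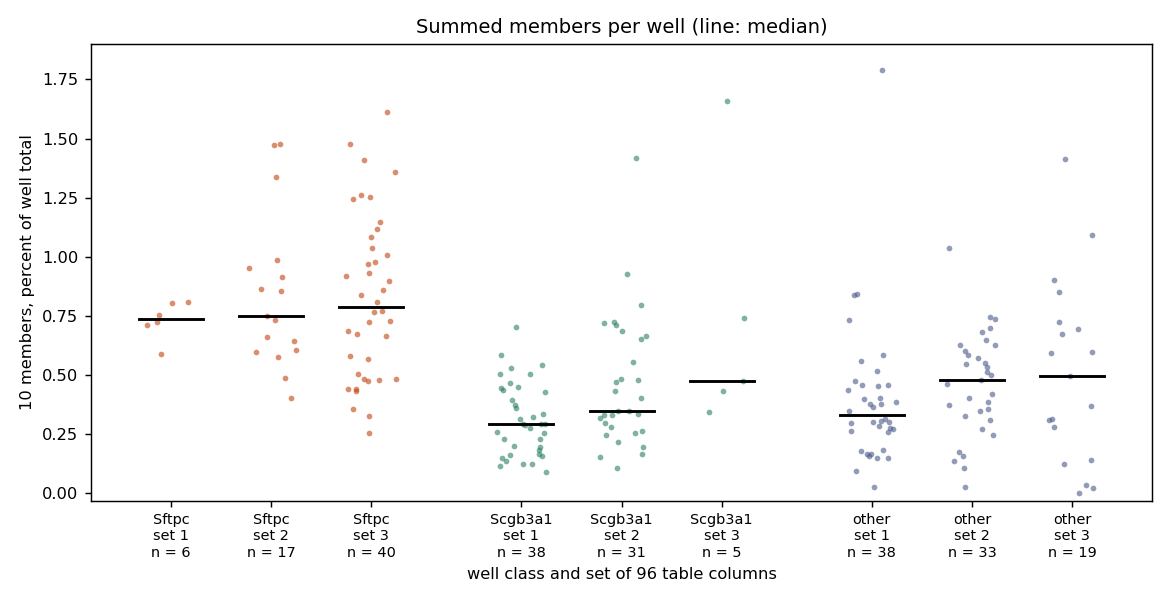
Share of each well's total (percent, y axis) taken by the 10 members, for Sftpc, Scgb3a1 and other wells in each set of 96 table columns (x axis); each point is a well and each line a median. The Sftpc medians lie between 0.739% and 0.789%, above the medians of the other classes in every set, with overlap of single wells.

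The classes also differed in the genes that fill most of a well. Rn45s, Scgb1a1, Scgb3a1 and Sftpc together took 31.5% of counts in Sftpc wells, 36.7% in Scgb3a1 wells and 39.7% in other wells, and of the remaining counts the members took 1.17%, 0.635% and 0.722%. In plain counts a Sftpc well held 30.7 member counts on average, a Scgb3a1 well 27.9 and an other well 24.5, although Sftpc wells were the shallowest. Thinned to 3151 counts, which left 44, 74 and 86 wells, the median well held 25.5, 12 and 13 member counts and 8, 6 and 6 members. The share of Rn45s, a ribosomal RNA gene, had medians of 11.2%, 8.27% and 8.79%, and the nuclear RNA Malat1 had 5476, 1280.2 and 1909.9 CPM in these classes. The part of these in the levels was not tested.

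**Figure D2:**
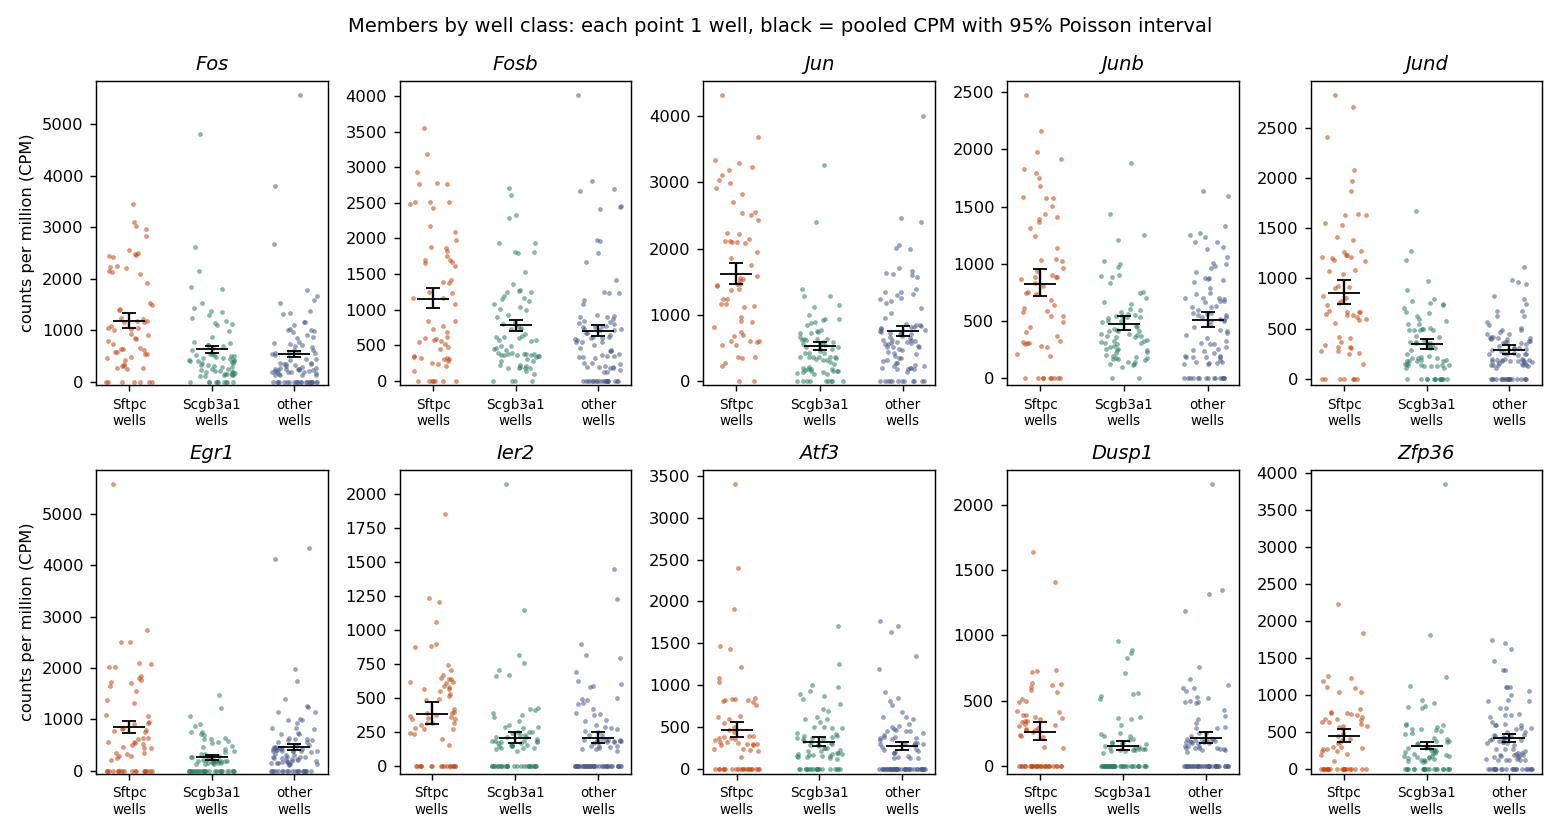
Level of each member in CPM (y axis, 1 panel a gene, own scale) in 63 Sftpc, 74 Scgb3a1 and 90 other wells (x axis); points are wells and black marks the pooled CPM with its 95% Poisson interval. Jund pools at 860.1 CPM in Sftpc wells and 289 CPM in other wells, while single wells overlap for each gene.

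Sftpc wells were set against other wells, all from the same lineage gate. Jund, Fos and Jun were at least 2-fold higher in Sftpc wells and the other 7 members were not, with 0 at least 2-fold lower. By the same rule of size 17.4% of 3854 genes with at least 20 counts over both classes were higher and 9.68% lower. The median log2 ratio was 0.81 over the members and 0.18 over all these genes. Without the 4 dominant genes in the total, the median of all genes was -0.01 and that of the members 0.63, and with TMM factors they were -0.14 and 0.49. Of the members only Jund was past 2-fold under either; without the 4 genes 13.6% of all genes were higher and 12% lower, and with TMM factors 11.5% and 14.6%.

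Jund, the Jun subunit often present without a stimulus, showed the widest difference. Its level in single Sftpc wells was 0 to 2822 CPM with a median of 754, in Scgb3a1 wells 0 to 1668 CPM with a median of 295 and in other wells 0 to 1114 CPM with a median of 249. Pooled it was 860.1 CPM (747 to 986) in Sftpc wells, 347 CPM (298 to 402) in Scgb3a1 wells and 289 CPM (244 to 339.8) in other wells. It was 2.98-fold (95% interval 2.40 to 3.70) higher in Sftpc than in other wells, and at log2 ratios of 0.99, 1.45 and 1.75 within sets 1, 2 and 3. A Sftpc well held 3.29 Jund counts on average and an other well 1.62. Thinned to equal depth, 84.1% of Sftpc wells, 60.8% of Scgb3a1 wells and 54.7% of other wells held a count, against 88.9%, 82.4% and 77.8% before thinning. The Sftpc interval lay above both others, which overlapped, while single wells of all classes overlapped.

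Jun, the founding partner of AP-1 dimers, ranged from 0 to 4313 CPM with a median of 1459 in Sftpc wells, from 0 to 3258 CPM with a median of 419 in Scgb3a1 wells and from 0 to 4005 CPM with a median of 611 in other wells. Its pooled level was 1616 CPM (1459.6 to 1785) in Sftpc wells, 528 CPM (467 to 595) in Scgb3a1 wells and 748 CPM (675 to 827) in other wells, so the 3 intervals were apart, with Scgb3a1 wells lowest. Jun was 2.16-fold (95% interval 1.87 to 2.50) higher in Sftpc than in other wells (log2 0.93 without the 4 dominant genes), with log2 ratios of 0.83, 1.34 and 1.17 within the sets. Fos ranged from 0 to 3457 CPM with a median of 1022 in Sftpc wells, from 0 to 4797 CPM with a median of 411 in Scgb3a1 wells and from 0 to 5554 CPM with a median of 301 in other wells. Pooled, Fos was at 1188 CPM (1055 to 1334), 631 CPM (564 to 704) and 538 CPM (476 to 606) in Sftpc, Scgb3a1 and other wells, and 2.21-fold (95% interval 1.86 to 2.62) higher in Sftpc than in other wells. For Fos the ratio differed between sets, with log2 values of 1.32, 1.32 and 0.48, and set 3, which holds 40 of the 63 Sftpc wells, was the low value. Fos was under 2-fold at equal depth (log2 0.88) and without set 1 (0.99).

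The remaining members differed less. Fosb, a Fos relative, was 1.64-fold (95% interval 1.40 to 1.93) higher, at 1155 CPM in Sftpc wells and 703 CPM in other wells. Junb was 1.62-fold (95% interval 1.34 to 1.96) higher, at 827 CPM and 511 CPM. Egr1 was 1.83-fold (95% interval 1.51 to 2.22) higher at 843 CPM and 461 CPM, Ier2 1.88-fold (95% interval 1.40 to 2.51) at 382 CPM and 204 CPM, and Atf3 at log2 0.76 (0.38 to 1.13) at 461 CPM and 273 CPM. These 5 intervals lay above equal levels with the whole total and also without the 4 dominant genes. They cover counting error only, leave out the spread between wells and are not a test. In wells above 4000 counts, however, Atf3 was at log2 -0.01. Within set 3, Egr1, Ier2 and Atf3 were at log2 0.41, 0.17 and 0.16. The feedback genes had the ratios nearest 1 with the whole total. Dusp1 had a ratio of 1.24 (0.891 to 1.70) and Zfp36 of 1.06 (0.836 to 1.35), and without the 4 dominant genes these were 1.09 and 0.937. With TMM factors both were below 1, at 0.991 and 0.854. Zfp36 was at log2 0.97, 0.02 and -0.45 within the 3 sets and Dusp1 at -0.47, -0.01 and -0.03, so Zfp36 changed sign between sets and Dusp1 was below 0 in each. Per well, Sftpc wells held 1.70 Zfp36 counts and other wells 2.34.

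The GENCODE span of Junb overlaps the 3' end of Prdx2 on the opposite strand over 351 bases (chromosome 8, 84974484 to 84974834). Counts are not stated to use strand, so reads within this stretch cannot be assigned to 1 of the 2 genes. Whether the principal Junb transcript, a single exon with a 3' UTR of 485 bases, reaches this stretch was not examined. Prdx2 gave 202 counts in kept wells, at 141, 171 and 158 CPM in Sftpc, Scgb3a1 and other wells. The 5' end of the Dusp1 span overlaps Ergic1 on the opposite strand over 640 bases (chromosome 17, 26561489 to 26562128), and Ergic1 had 51 counts. This stretch lies upstream of the RefSeq promoter of Dusp1, whose printed bases are at 26508597 to 26508626.

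**Figure D3:**
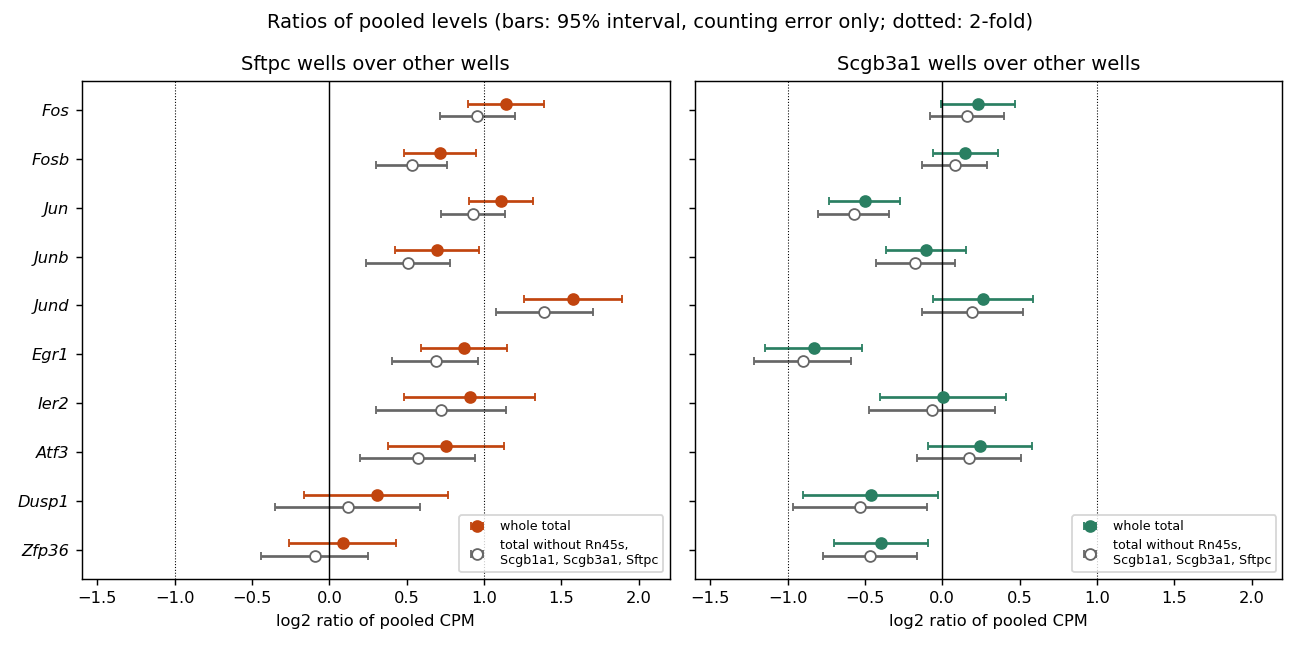
Log2 ratio of pooled CPM (x axis) for each member (y axis), Sftpc over other wells (left) and Scgb3a1 over other wells (right); filled points use the whole total, open points the total without Rn45s, Scgb1a1, Scgb3a1 and Sftpc, lines are 95% intervals for counting error and dotted lines mark 2-fold. Jund at 1.57 lies farthest right on the left side, and Egr1 at -0.83 farthest left on the right side.

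Scgb3a1 wells were then set against other wells, both with high club marker sums. No member was 2-fold higher or lower, beside 8.13% of 4536 genes higher and 9.24% lower. The median log2 ratio of the members was -0.05, against -0.02 over all genes, with 5 members above 0 and 5 below. Egr1 came closest to the limit, with single wells at 0 to 1481 CPM with a median of 179 in the Scgb3a1 class and 0 to 4336 CPM with a median of 348 in the other class. Its pooled level was 259 CPM (217 to 307) in Scgb3a1 wells and 461 CPM (404 to 524) in other wells, a ratio of 0.562 (0.451 to 0.698), and 843 CPM (731 to 968) in Sftpc wells. The order Sftpc, other, Scgb3a1 for Egr1 held in all 3 sets, with log2 ratios of -0.92, -0.48 and -1.15 for Scgb3a1 over other wells. Jun had a ratio of 0.706 (0.602 to 0.827), Dusp1 of 0.727 (0.537 to 0.981) and Zfp36 of 0.761 (0.616 to 0.938). Fosb, Fos, Jund and Atf3 had ratios of 1.11, 1.17, 1.20 and 1.18 and intervals that included 1. In set 3, with its 5 Scgb3a1 wells, Zfp36 was at log2 1.04 and Jun at 0.62, against -0.91 and -0.86 in set 1. In set 3 alone Zfp36 was past 2-fold higher and Egr1 past 2-fold lower, beside 5.5% of genes higher and 22.5% lower. Without set 2 no member was past 2-fold higher and Egr1 was past 2-fold lower, beside 7.53% and 10.4%.

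The makeup of each family needs no well total, since each gene is set against its relatives in the same wells. Of the Jun family counts, Jund made up 26.0% (23.0 to 29.2%) in Sftpc wells, 25.7% (22.5 to 29.1%) in Scgb3a1 wells and 18.7% (16.0 to 21.6%) in other wells. Junb made up 25.0% (22.1 to 28.2%), 35.2% (31.7 to 38.9%) and 33.0% (29.7 to 36.4%) in these classes, and Jun 48.9% (45.4 to 52.5%), 39.1% (35.5 to 42.9%) and 48.3% (44.8 to 51.9%). The Jund interval of other wells lay below both others, the Jun interval of Scgb3a1 wells below both others, and the Junb interval of Sftpc wells below both others. In sets 1, 2 and 3 the Jund share was 19.4%, 22.6% and 29.3% in Sftpc wells, against 18.6%, 18.6% and 18.9% in other wells, and set 1 holds only 6 Sftpc wells. The Jund share of Scgb3a1 wells was 25.3%, 26.1% and 24.1%. The orders of Jun and Junb each turned in a set. In set 3 the Jun share was 46% in Sftpc wells, 48.1% in Scgb3a1 wells and 44.1% in other wells, and in set 1 the Junb share was 35.5%, 37.1% and 32.8% in these classes. Fos made up 50.7% (46.5 to 54.9%) of Fos and Fosb counts in Sftpc wells, 44.8% (41.1 to 48.5%) in Scgb3a1 wells and 43.4% (39.5 to 47.4%) in other wells, and this share moved between sets within a class from 36.2% to 55.0% in other wells. These shares were chosen after the levels had been seen.

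**Figure D4:**
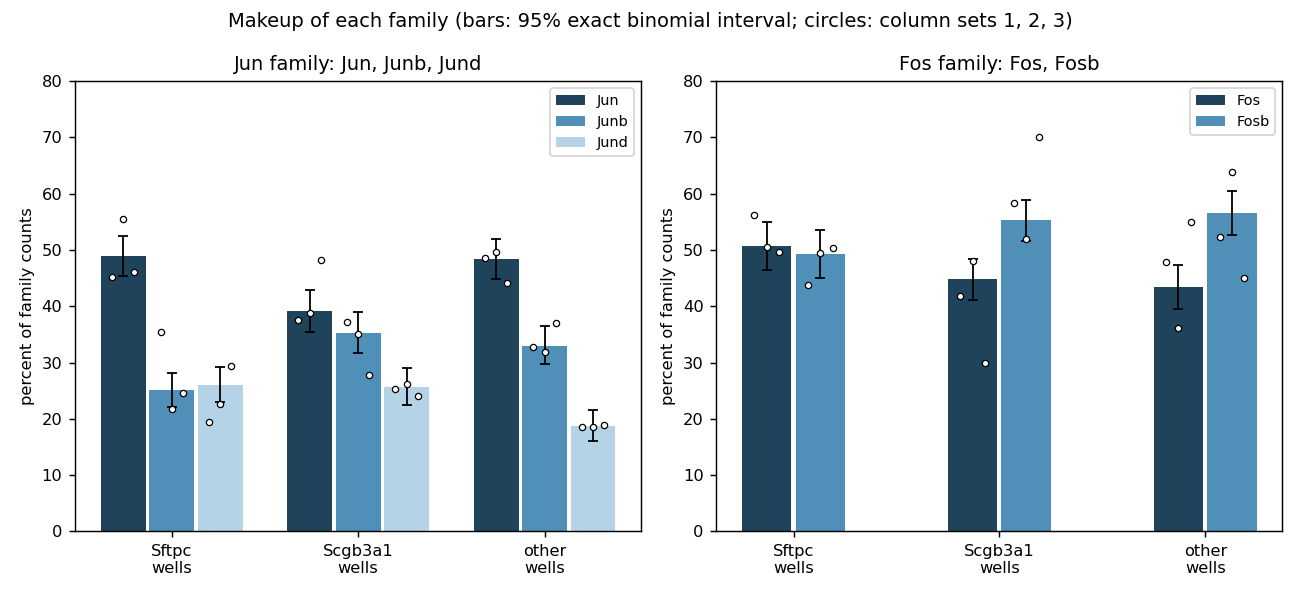
Percent of family counts (y axis) given by Jun, Junb and Jund (left) and by Fos and Fosb (right) in each class of wells (x axis); error bars are 95% exact binomial intervals and white circles the values in sets 1, 2 and 3 of the table. Jund stands at 26.0% in Sftpc wells, 25.7% in Scgb3a1 wells and 18.7% in other wells.

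The members varied together across single wells, though loosely. Over the 227 wells all 45 pairs had a positive Spearman correlation of CPM, with a median of 0.234 and a range of 0.0401 to 0.470. The median over all pairs of the 1743 genes found in at least 25% of wells was 0.00837. Those genes were not matched to the members in abundance, and the members were found in 55.5% to 89.9% of wells. Wells share the library preparation, the depth and the makeup of the total, and the values are a description. The highest pairs were Fos with Junb at 0.47, Fos with Egr1 at 0.44 and Fos with Jun at 0.44. Fos and Junb were also the members with the highest median correlation to the other 9, at 0.31 and 0.31, and Ier2 and Jund the lowest, at 0.14 and 0.15. In wells thinned to 3151 counts all 45 pairs stayed positive, with a median of 0.168.

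**Figure D5:**
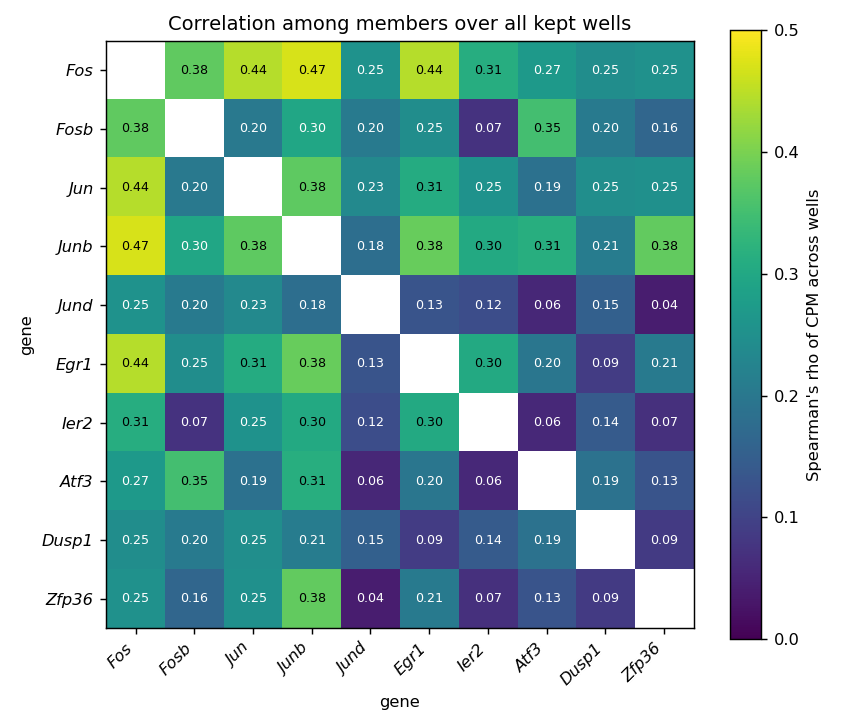
Spearman correlation of CPM over 227 wells for each pair of members (both axes list the genes, colour and printed number give rho). Fos, Junb, Egr1 and Jun share the highest values, up to 0.47, and Jund with Zfp36 has the lowest at 0.04.

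Within classes the correlations differed by pair. The median over the 45 pairs was 0.107 in 63 Sftpc wells, 0.234 in 74 Scgb3a1 wells and 0.231 in 90 other wells, with 31, 40 and 44 positive pairs. With classes and depth both held, that is in thinned wells of a class, the medians were 0.0907, 0.132 and 0.142. Fos with Egr1 held at 0.44, 0.54 and 0.34 in Sftpc, Scgb3a1 and other wells, and Fos with Junb at 0.31, 0.35 and 0.56. Jun with Jund, at 0.23 over all wells, had 0.03, 0.17 and 0.02 within the classes. Fos with Jund had 0.07, 0.15 and 0.07, against 0.25 over all wells. These pairs with Jund were thus near 0 in Sftpc and other wells.

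In thinned wells the ratio of variance to mean was 3.44 for Fos, 3.31 for Egr1, 3.06 for Fosb and 3.02 for Jun, and 1.58 for Junb at the low end. The thinned means of Junb and Egr1 were 1.77 and 1.54 counts, so Egr1 was the more uneven at a like mean. The ratio is 1 for independent counts, copies of 1 molecule counted separately would raise it, and whether such copies were collapsed is not known. Class differences were not removed either.

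The genes most like the summed members were AT2 genes and a nuclear RNA. Among 1733 genes found in at least 25% of wells, the highest Spearman correlations over 227 wells were those of Napsa at 0.55, Malat1 at 0.54, Lamp3 at 0.52, Lyz2 at 0.51 and Lgi3 at 0.50. Within Sftpc wells these were 0.15, 0.08, -0.14, -0.04 and 0.11, all below the values over all wells. Napsa and Lgi3 had 0 counts in Scgb3a1 wells. Malat1 had 0.44 within the 90 other wells. In these wells the summed members also had a correlation of -0.43 with the Scgb1a1 share of the well and of -0.05 with its total. Over all wells the correlation with the Rn45s share was 0.40, and within Sftpc, Scgb3a1 and other wells it was -0.01, 0.11 and 0.17.

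Other genes of the same pathways went in both directions. For other AP-1 and related bZIP genes in Sftpc against other wells, 1 of 7 measured genes were at least 2-fold higher and 1 at least 2-fold lower (median log2 ratio -0.40). With either other scaling 2 were lower. Atf2, a CRE-binding factor, was higher at a ratio of 2.94 (1.21 to 7.40; 14 and 10 counts) and the AP-1 repressor Jdp2 lower at a ratio of 0.420 (0.104 to 1.25; 4 and 20 counts). For other immediate early genes 3 of 21 measured genes were at least 2-fold higher and 3 at least 2-fold lower (median log2 ratio 0.03). The counts were 2 higher and 4 lower without the 4 dominant genes in the total, and 2 and 5 with TMM factors. Of all genes, 17.4% were higher and 9.68% lower with the whole total. These shares were 13.6% and 12% without the 4 genes, and 11.5% and 14.6% with TMM factors. Each list count here is to be set beside the share of its own scaling. Id2, an inhibitor of helix-loop-helix factors, was 5.41-fold (3.13 to 9.74) higher, while Egr2 and Nr4a2 were lower at a ratio of 0.0724 (0.00177 to 0.437; 1 and 29 counts) and a ratio of 0.110 (0.00266 to 0.695; 1 and 19 counts). Of the feedback regulators 4 of 9 measured genes were at least 2-fold higher and 0 at least 2-fold lower (median log2 ratio 0.79). Spry2, an inhibitor of receptor tyrosine kinase signalling, was at 2.80-fold (1.24 to 6.48) on 16 and 12 counts. The IkB family gene Nfkbiz was at 2.50-fold (1.34 to 4.70) on 25 and 21 counts. Zfp36l2, a relative of Zfp36, was at 2.38-fold (1.12 to 5.12) on 17 and 15 counts. With TMM factors 2 of these feedback genes were past 2-fold.

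Upstream genes and chaperones did not share 1 direction either. Beside the list counts here, 17.4% of all genes measured were at least 2-fold higher and 9.68% at least 2-fold lower in Sftpc wells. Of receptors, kinases and factors upstream of immediate early genes, 1 of 8 measured genes were at least 2-fold higher and 1 at least 2-fold lower (median log2 ratio 0.56). Map2k1, the kinase above ERK, was higher at a ratio of 4.80 (1.87 to 13.8; 16 and 7 counts) and Srf, the factor that binds CArG boxes, lower at a ratio of 0.455 (0.229 to 0.838; 13 and 60 counts). Of the growth factor and cytokine targets 1 of 4 measured genes were at least 2-fold higher and 1 at least 2-fold lower (median log2 ratio 0.31), with the EGF receptor ligand Areg at 5.19-fold (2.99 to 9.37) and endothelin Edn1 at a ratio of 0.233 (0.0262 to 0.974; 2 and 18 counts). Of the heat shock and dissociation stress genes 2 of 14 measured genes were at least 2-fold higher and 2 at least 2-fold lower (median log2 ratio -0.21). These counts were 2 higher and 3 lower without the 4 dominant genes in the total, and 1 and 5 with TMM factors, so the balance of directions differed between scalings. Of all genes, 13.6% were higher and 12% lower without the 4 genes, and 11.5% and 14.6% with TMM factors. The inducible HSP70 genes Hspa1a and Hspa1b were higher at a ratio of 3.73 (1.55 to 9.58; 16 and 9 counts) and a ratio of 2.29 (0.925 to 5.73; 12 and 11 counts), copies of nearly the same sequence whose reads may be split, and Hspb1 was lower at a ratio of 0.446 (0.299 to 0.649; 34 and 160 counts).

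In Scgb3a1 against other wells, 2 of 22 measured other immediate early genes were at least 2-fold higher and 3 at least 2-fold lower. The median log2 ratio of these 22 genes was 0.01. Over all 4536 genes measured, 8.13% were higher and 9.24% lower, the share to set beside each list count here. Klf4 was 7.40-fold (5.07 to 11.1) higher on 233 and 31 counts, and Ctgf 8.86-fold (3.18 to 34.3) higher on 36 and 4 counts. Gadd45a, a growth arrest gene, was lower at a ratio of 0.203 (0.0758 to 0.465) on 7 and 34 counts. Klf4 was also 4.74-fold (3.06 to 7.49) higher in Sftpc than in other wells, on 70 and 31 counts. Among feedback regulators 1 of 10 measured genes were at least 2-fold higher and 3 at least 2-fold lower (median log2 ratio 0.14), with Spry1, the cytokine signalling inhibitor Socs3 and Spred1 lower at a ratio of 0.347 (0.164 to 0.688; 12 and 34 counts), a ratio of 0.384 (0.258 to 0.561; 39 and 100 counts) and a ratio of 0.463 (0.173 to 1.13; 8 and 17 counts). Areg was lower at a ratio of 0.0518 (0.00125 to 0.326; 1 and 19 counts), the only call of 5 measured growth factor and cytokine targets. Hspa1b and Hspa1a were higher at a ratio of 2.15 (1.01 to 4.86; 24 and 11 counts) and a ratio of 2.08 (0.896 to 5.22; 19 and 9 counts), and no other gene of the stress list was past 2-fold. Of 7 AP-1 relatives and 9 upstream genes, 0 were past 2-fold in either direction with the whole total, and with TMM factors 1 upstream gene was higher. Without the 4 dominant genes in the total, 0 feedback regulators were higher, against 2 with TMM factors, and 2 growth factor and cytokine targets were lower. Of all genes, 7.52% were higher and 10.1% lower without the 4 genes, and 9.24% and 8.09% with TMM factors.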

How the data were processed

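Single-cell RNA was measured in 286 wells and in 2 negative control wells. The authors' deposited table holds raw counts, whole numbers that were not normalized, 1 row a gene symbol and 1 column a well. Per the labels' protocols, cDNA was primed from poly(A) with a molecular barcode and amplified, and spike-in RNA was added; per the submitters' processing notes, STAR and the build mm10 were used. Which annotation and counter were used, and whether barcodes were collapsed, is not given in the sources used here. If they were not, PCR copies count separately and intervals are too narrow.

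Pooled CPM is the summed count over the summed total of a class, with exact Poisson intervals; shares have exact Clopper-Pearson intervals and ratios exact conditional binomial intervals, all at 95%. A gene was called higher or lower at a ratio of 2-fold or more, given 20 or more counts in the 2 classes together; this is a rule of size, not a test. A class at 0 counts was set to 3. For equal depth, 3151 counts (percentile 10 of the kept totals) were drawn at random from each well, and 23 shallower wells were left out. TMM factors came from edgeR 4.0.16; the rest used Python 3.11.15, numpy 2.4.6, scipy 1.17.1 and pandas 2.3.3. Named beyond the members were, per list, up to 3 genes with the widest ratios past 2-fold and the 5 genes most correlated with the summed members. The members and lists were chosen with earlier results of these data known. Of 24781 symbols, 24241 matched GENCODE M21. Promoter sequence is from RefSeq GRCm38.p6. No doublets were called, and no spike-in was used.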

Additional observations from a re-analysis of the deposited data

How the results depend on the processing

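The number of members at least 2-fold higher in Sftpc wells was 3 (Fos, Jun and Jund). It fell to 1 (Jund) when Rn45s, Scgb1a1, Scgb3a1 and Sftpc were left out of the total and to 1 (Jund) with TMM factors. Under the other alternatives it lay between 2 and 4. Where a share of all genes was taken, it ran from 12% higher (set 1 alone) to 34.6% (no count minimum). Fos was the call lost in thinned wells, in set 3 alone and without set 1. In set 1 alone the calls were Fos, Junb and Atf3 (log2 1.32, 1.05 and 1.29). Jun (0.83) and Jund (0.99) were under 2-fold there. The 4 genes left out took 31.5% of counts in Sftpc wells and 39.7% in other wells. The TMM factors of these classes were 1.17 and 0.941. No member was 2-fold lower in Sftpc wells under any alternative run. In Scgb3a1 wells against other wells the count of 0 in each direction became 1 higher (Zfp36) and 1 lower (Egr1) in the columns of set 3 alone, with 5 Scgb3a1 wells, and 1 lower (Egr1) without set 2. The median correlation among members was 0.107 in Sftpc wells alone and 0.0907 in these wells thinned, an alternative chosen after seeing the data, against 0.234 overall; the cause was not tested. Of the log2 ratios of single members for Sftpc wells, 145 of 170 alternative values stayed within their 95% interval. For Scgb3a1 wells 150 of 170 did. The ratios of Fos, Jun and Jund in Sftpc wells kept their sign under every alternative run. For Scgb3a1 over other wells, Zfp36 turned from log2 -0.39 over all sets to 1.04, past 2-fold, in set 3 alone. No paired analysis was possible because well numbers name wells and the labels name no animal. Depth limits the lower members, with medians of 1 count a well for Ier2, Atf3 and Dusp1.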
